A study of Mus musculus with 10 samples.

Results

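The 10 genes described here are immediate early genes outside the AP-1 family, namely *Egr1*, *Egr2*, *Egr3*, *Nr4a1*, *Nr4a2*, *Nr4a3*, *Ier2*, *Ier3*, *Dusp1* and *Arc*. They were chosen by symbol, and all 10 were found among the 53974 genes of the RNA-seq table. Of the 16600 regions compared by ATAC-seq, 5 lay within 1000 bp of an end of one of these genes. The study asked how loss of *Arid1a*, which encodes a DNA-binding member of SWI/SNF remodelers, changes injured retinal ganglion cells (RGCs), with optic nerve crush (ONC) as the injury. C57BL/6 mice of 8 to 10 weeks, all carrying the floxed *Arid1a* allele, received intravitreal AAV2-GFP (labelled WT, genotype Arid1a fl/fl) or AAV2-Cre (labelled cKO, genotype Arid1a del/del) 2 weeks before ONC. Retinas were taken 3 days after ONC and DAPI-negative, Thy1.2-PE+ cells were sorted, with 4 to 5 retinas pooled in each sample. RNA-seq covered 3 libraries per label and ATAC-seq 2 per label. The virus drove Cre from a CMV promoter, which is not restricted to RGCs, and no uninjured library was analysed here, so every value is from crushed eyes.

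RNA is given in TPM, a transcript abundance per length that sums to nearly the same total in each library, and no sequencing depth is known. *Arid1a* itself had 18.8, 11.7 and 14.1 TPM under the label WT and 18.8, 27.9 and 25.0 TPM under the label cKO (log2 fold change 0.66, standard error (SE) 0.28, limma adjusted p = 0.274). *Arid1a* RNA was therefore not lower under the label cKO. TPM was given per gene, so these values do not show which *Arid1a* exons the RNA held. The tissue label was checked against RGC markers. *Rbpms* lay between 1.82 and 6.43 TPM, and *Pou4f2* was listed at 0 in 5 libraries and at 0.143 TPM in the remaining library. Of the other 10 markers on the RGC list, *Thy1*, the sort marker, lay between 51.9 and 129 TPM, *Isl1*, which bipolar and amacrine cells also express, between 51.9 and 104 TPM, and *Nefl* between 5.47 and 20.6 TPM. The markers most specific to RGCs, the *Pou4f* genes and *Rbpms*, were thus low or at 0, while *Thy1*, *Isl1* and *Nefl* were present. In such mixed material, fewer cells of a type and less RNA per cell cannot be told apart.

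Immediate early genes are switched on within minutes of a stimulus from factors already present in the cell, without new protein synthesis. Calcium and the ERK cascade reach them through CREB, which binds the cAMP response element (CRE), and through SRF with its ternary complex partners, which binds the CArG box. In neurons they respond to activity and to axon injury, and in lymphocytes to antigen receptor signaling. *Egr1* to *Egr3* encode zinc finger transcription factors, *Nr4a1* to *Nr4a3* encode orphan nuclear receptors, *Dusp1* encodes a phosphatase that turns off MAP kinases, and *Arc* encodes a synaptic protein that promotes removal of AMPA receptors.

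Promoter sequences are shown for the CRE and CArG letters they hold and for the ATAC-seq regions that cover some of them. RefSeq windows on GRCm38.p6 were matched for 6 of the 10 genes, and the 250 bases before a start site are given 5′ to 3′ on the strand of the gene. Capitals mark the CRE half-site TGACG on either strand and the CArG box. The windows are *Nr4a1* at chr15:101266596-101266845 (plus strand), *Nr4a2* at chr2:57124004-57124253 (minus strand), *Nr4a3* at chr4:48045055-48045304 (plus strand), *Dusp1* at chr17:26508473-26508722 (minus strand), *Egr2* at chr10:67537619-67537868 (plus strand, 1 of 5 listed start sites) and *Ier3* at chr17:35821463-35821712 (plus strand).
Nr4a1: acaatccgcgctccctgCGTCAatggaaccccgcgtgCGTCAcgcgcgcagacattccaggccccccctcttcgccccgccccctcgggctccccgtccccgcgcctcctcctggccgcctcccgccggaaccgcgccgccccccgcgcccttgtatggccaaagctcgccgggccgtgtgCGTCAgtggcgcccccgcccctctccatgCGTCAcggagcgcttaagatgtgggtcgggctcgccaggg
Nr4a2: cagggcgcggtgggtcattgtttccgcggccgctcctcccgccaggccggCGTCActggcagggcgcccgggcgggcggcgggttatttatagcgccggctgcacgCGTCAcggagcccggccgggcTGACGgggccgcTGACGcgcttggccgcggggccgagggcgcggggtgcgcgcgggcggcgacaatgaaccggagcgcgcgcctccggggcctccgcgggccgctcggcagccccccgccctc
Nr4a3: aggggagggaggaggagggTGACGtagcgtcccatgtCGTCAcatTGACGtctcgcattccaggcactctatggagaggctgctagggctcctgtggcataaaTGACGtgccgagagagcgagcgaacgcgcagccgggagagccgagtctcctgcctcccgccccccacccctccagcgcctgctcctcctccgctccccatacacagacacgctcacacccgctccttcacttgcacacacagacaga
Dusp1: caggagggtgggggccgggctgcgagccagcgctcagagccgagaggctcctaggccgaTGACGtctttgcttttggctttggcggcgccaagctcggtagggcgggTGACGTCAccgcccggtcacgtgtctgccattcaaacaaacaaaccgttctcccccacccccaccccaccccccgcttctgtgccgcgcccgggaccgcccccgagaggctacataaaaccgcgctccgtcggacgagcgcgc
Egr2: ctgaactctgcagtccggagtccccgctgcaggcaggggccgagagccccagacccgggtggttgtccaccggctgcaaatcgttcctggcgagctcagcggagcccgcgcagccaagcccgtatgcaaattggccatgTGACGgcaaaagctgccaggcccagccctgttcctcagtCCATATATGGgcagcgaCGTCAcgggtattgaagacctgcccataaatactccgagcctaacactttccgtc
Ier3: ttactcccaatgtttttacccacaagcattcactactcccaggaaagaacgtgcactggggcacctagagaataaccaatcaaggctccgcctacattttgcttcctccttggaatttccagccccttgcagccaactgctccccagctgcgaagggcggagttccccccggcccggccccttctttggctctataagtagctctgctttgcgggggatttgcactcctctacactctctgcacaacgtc

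The 3 NR4A genes each had 4 CRE half-sites in the window, while at least 4 were found in 0.137% of the 32851 promoter windows of the same length. *Dusp1* had 3, of which 2 overlapped as one palindrome, and 0.688% of windows had at least 3. The *Egr2* window shown held 2 CRE half-sites and a CArG box, which was found in 1.47% of windows. Of the other 4 *Egr2* windows, the 2 that overlap it held the same motifs, 1 held a CArG box alone and 1 held neither. At least 1 CRE half-site was present in 17.8% of windows. These shares are not matched for base composition. The 3 NR4A windows held 63.6% to 80% G and C and the *Dusp1* window 68.4%, beside a median of 52.4% over all windows. *Ier3* held neither motif in this window, and none of the 6 windows matched the AP-1 motif TGANTCA, searched on both strands and found in 6.75% of windows. A match describes the letters and does not show that a factor binds there. The windows of *Nr4a1*, *Nr4a3* and *Dusp1* lay wholly inside an ATAC-seq region, and those of *Nr4a2*, *Egr2* and *Ier3* overlapped none.

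The genes fell into 3 bands of RNA level. *Dusp1*, *Ier2* and *Egr1* had means over the 6 libraries of 536, 460 and 427 TPM, and their ranges overlapped, so their order is not settled. *Egr1* lay above *Ier3* in all 6 libraries with no overlap of the ranges. *Ier3* and *Nr4a1* followed at 46.0 and 32.8 TPM and overlapped with each other. *Nr4a1* lay above *Nr4a2* in all 6 libraries, again with no overlap. *Nr4a2* averaged 12.3 TPM, *Egr2* 9.26, *Arc* 2.27, *Egr3* 1.57 and *Nr4a3* 1.39 TPM, and each of these overlapped with its neighbour. All 10 genes passed the filter of at least 1 TPM in at least 3 libraries, and 7 had at least 1 TPM in every library. *Egr3* passed with all 3 libraries labelled WT and 1 labelled cKO.

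**Figure D1:**
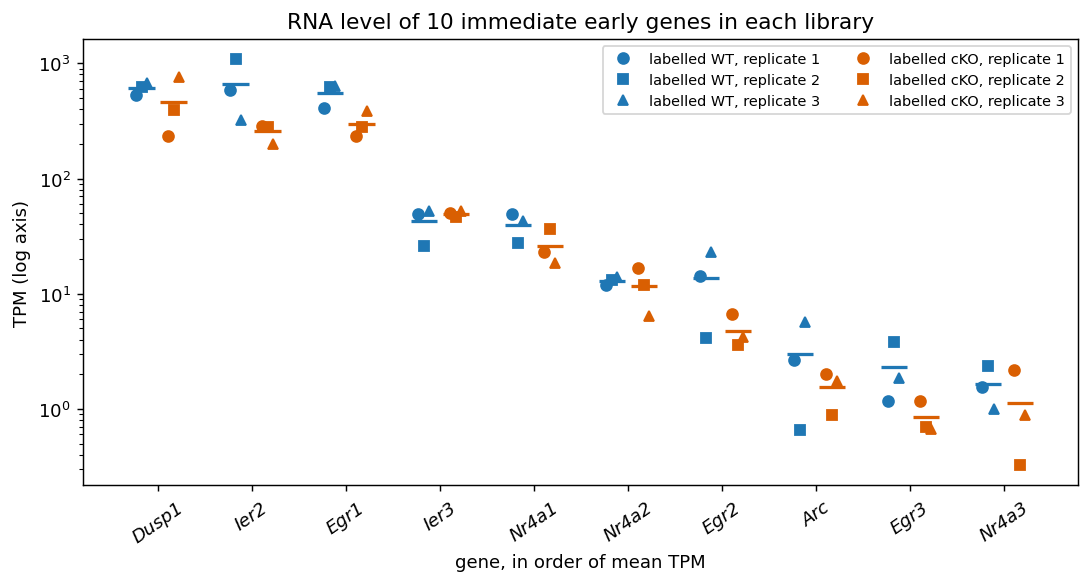
TPM (log axis) of each of the 10 genes in the 3 libraries labelled WT (blue) and the 3 labelled cKO (orange), with marker shapes for replicate numbers and a line at each group's mean. The groups are apart in *Egr1* and *Ier2* and overlap in the other 8 genes.

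To ask whether these genes differ with the label, log2(TPM + 1) was compared with limma. Mean TPM was higher under the label WT in 9 of the 10 genes, *Ier3* being the other. By adjusted p under 0.05 limma called 0 of the 10, and their adjusted p lay between 0.183 and 0.759. Over all 17555 genes tested, 0.00570% passed. At an unadjusted p under 0.05, 2 of the 10 were lower under the label cKO and 0 were higher, where 6.45% of all genes were lower and 11.9% were higher. The 3 cKO values were all below the 3 WT values in 2 of the 10 genes, as in 7.18% of all genes, and all above in 0, where 18.7% of all genes were. The median log2 fold change of the 10 genes was -0.58, beside 0.16 for all genes tested. A log2 fold change under 0 was found in 38.9% of all genes. Scaling by the median of ratios moved the median of all genes to 0.01 and left the same count of 9 genes with a fold change under 0.

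*Egr1*, the best known member of its family, had 406, 623 and 631 TPM in the libraries labelled WT and 235, 281 and 384 TPM in those labelled cKO. The groups did not overlap, and the mean was 553 ± 128 TPM (SD, n = 3) against 300.2 ± 76.7 TPM (SD, n = 3). The log2 fold change of *Egr1* was -0.88 (SE 0.28, limma adjusted p = 0.183), and the exact two-sided permutation test gave p = 0.1, the smallest that 3 libraries against 3 allow. Leaving out each library in turn kept it between -1.09 and -0.72. *Egr2*, which in the nervous system is known for its role in Schwann cell myelination, had 14.2, 4.10 and 22.9 TPM under the label WT and 6.60, 3.56 and 4.21 TPM under the label cKO. Replicate 2 labelled WT lay among the libraries labelled cKO, and the log2 fold change of -1.12 (SE 0.58, limma adjusted p = 0.343) ranged from -1.75 without that library to -0.64 without WT replicate 3. Within each replicate number *Egr2* was lower under the label cKO, and with the replicate block its unadjusted p was 0.0442 in place of 0.0922 (limma adjusted p = 0.216). *Egr3*, which in lymphocytes is induced by antigen receptor signaling, was low, with 1.16, 3.84 and 1.87 TPM labelled WT and 1.18, 0.70 and 0.671 TPM labelled cKO. Its highest library was WT replicate 2, in which *Egr2* was lowest among the libraries labelled WT. The log2 fold change of *Egr3* was -0.76 (SE 0.37, limma adjusted p = 0.317), -0.44 without WT replicate 2 and -1.21 with a pseudocount of 0.1.

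The NR4A receptors act without a known classical ligand, and only their RNA, not their activity, was measured here. *Nr4a1* (Nur77) had 48.8, 27.3 and 42.7 TPM in the libraries labelled WT and 23.2, 36.4 and 18.6 TPM in those labelled cKO. Replicate 2 of each label crossed over, and the log2 fold change was -0.60 (SE 0.34, limma adjusted p = 0.386), and -0.39 without cKO replicate 3. *Nr4a2* (Nurr1), which is required for midbrain dopamine neurons, varied little under the label WT, at 11.9, 13.3 and 13.8 TPM, and more under the label cKO, at 16.6, 11.8 and 6.45 TPM. Its highest and its lowest library both carried the label cKO, and the log2 fold change of -0.23 (SE 0.36) turned to 0.11 without cKO replicate 3 and was -0.39 after median-of-ratios scaling. *Nr4a3* (NOR1) stood at 1.55, 2.36 and 0.998 TPM labelled WT and 2.2, 0.326 and 0.879 TPM labelled cKO, with a log2 fold change of -0.37 (SE 0.40). It was -0.71 without cKO replicate 1, -0.07 without cKO replicate 2 and -0.74 with a pseudocount of 0.1.

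*Ier2*, a short gene for a nuclear regulator of transcription, had 584, 1087 and 320 TPM in the libraries labelled WT and 288, 281 and 199 TPM in those labelled cKO. The groups did not overlap, and the mean was 663 ± 390 TPM (SD, n = 3) against 256 ± 49.6 TPM (SD, n = 3). The log2 fold change of *Ier2* was -1.21 (SE 0.44, limma adjusted p = 0.216; exact two-sided permutation p = 0.1). Without WT replicate 2 it was -0.77, and without WT replicate 3 it was -1.65. *Ier3*, which is induced by NF-kB and stress and acts on cell survival, was nearly level in 5 libraries, at 46.6 to 52.6 TPM, and at 26.0 TPM in WT replicate 2. Its log2 fold change was 0.28 (SE 0.30), -0.03 without that library and 0.11 after median-of-ratios scaling.

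*Dusp1* had 534, 623 and 669 TPM under the label WT and 235, 391 and 765 TPM under the label cKO. The library with the most *Dusp1* and the 2 with the least were all labelled cKO, and the log2 fold change of -0.55 (SE 0.42, limma adjusted p = 0.516) ranged from -1.0 to -0.15 as each library was left out. *Arc* had 2.68, 0.655 and 5.64 TPM labelled WT and 2.02, 0.879 and 1.76 TPM labelled cKO. Both the highest and the lowest *Arc* value came from libraries labelled WT, and the log2 fold change of -0.46 (SE 0.53) became 0.02 without WT replicate 3.

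**Figure D2:**
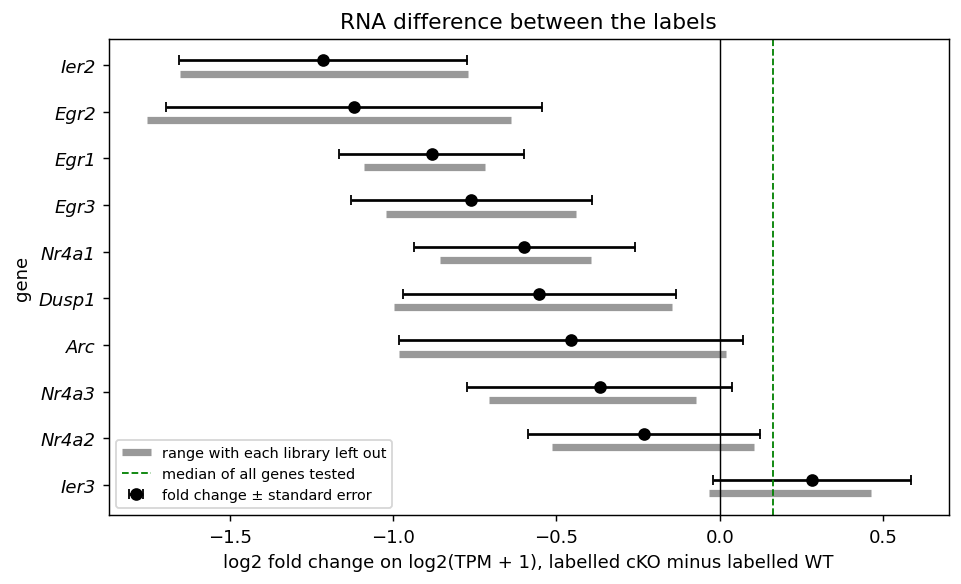
Log2 fold change on log2(TPM + 1), labelled cKO minus labelled WT, for each gene with its standard error from limma (black) and its range over the fits without 1 library (grey), beside the median of all genes tested (dashed line, 0.16). *Ier2* has the lowest value at -1.21 and *Ier3* the highest at 0.28, and the grey bars of *Arc*, *Nr4a2* and *Ier3* cross 0.

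Across libraries the genes did not move as one. Of the 10 genes, 8 had their highest value in a library labelled WT and 8 their lowest in a library labelled cKO. WT replicate 2 held the highest value of *Ier2*, *Egr3* and *Nr4a3* and the lowest of *Ier3* and *Arc*. WT replicate 3 held the highest value of *Egr1*, *Egr2*, *Ier3* and *Arc*. As a measure of likeness, the root mean square difference was taken between log2(TPM + 1) values of 2 genes, each centred on its own mean over the 6 libraries. The most alike pairs among the 10 were *Egr1* with *Dusp1*, at 0.35, and *Egr2* with *Arc*, at 0.38. Among all 17554 genes compared, *Dusp1* ranked 959 in likeness to *Egr1*, and *Arc* ranked 129 in likeness to *Egr2*. The nearest gene, given here for 9 of the 10, was *Enpp6* for *Egr1* (0.09), *Lrmp* for *Egr2* (0.16), *Ltbr* for *Egr3* (0.12) and *Tln1* for *Nr4a2* (0.14). It was *Zscan20* for *Nr4a3* (0.14), *Nfxl1* for *Ier2* (0.08), *Vps13a* for *Ier3* (0.06), *Zcchc24* for *Dusp1* (0.12) and the immunoglobulin gene *Ighd* for *Arc* (0.14).

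Markers of other cell types moved with the label and between libraries. The 8 T cell markers summed to 309 to 884 TPM in the libraries labelled WT and to 82.0 to 189 TPM in those labelled cKO. All 8 had a log2 fold change under 0, beside 38.9% of all genes tested. *Cd3e*, a T cell receptor subunit, stood at 83.1, 56.7 and 72.2 TPM against 16.5, 12.4 and 9.13 TPM. The 5 B cell markers summed to 29.6 to 106 TPM against 8.86 to 18.3 TPM, and the 10 myeloid markers to 1190 to 2163 TPM against 648 to 908 TPM. The myeloid sum was largely *C1qa*, at 475 to 1010 TPM against 232 to 334 TPM, and *C1qb*, at 284 to 562 TPM against 130 to 196 TPM. All cKO values lay below all WT values in 3 of the 10 myeloid markers, beside 7.18% of all genes tested. *P2ry12* was nearly level, with a log2 fold change of 0.099. The 8 rod markers ran the other way, at 12190 to 17033 TPM against 24921 to 47557 TPM, as did the 6 cone markers at 1775 to 2414 TPM against 3192 to 5893 TPM. The 7 amacrine markers summed to 435 to 615 TPM against 879 to 1690 TPM, while the 6 bipolar markers overlapped, at 609 to 964 TPM against 934 to 1184 TPM. The 12 RGC markers summed to 144 to 205 TPM against 227 to 253 TPM, largely through *Thy1* and *Isl1*. Of the 9 RGC markers tested, 6 had a log2 fold change above 0, beside 10733 of all 17555 genes tested. Those 6 were *Tubb3* (1.01), *Thy1* (0.71), *Nefl* (0.68), *Isl1* (0.26), *Nefh* (0.11) and *Nefm* (0.016). The 3 under 0 were *Rbpms* (-0.41), *Pou4f1* (-0.64) and *Sncg* (-0.83). All cKO values lay above all WT values in 2 of the 9, *Tubb3* and *Thy1*, beside 18.7% of all genes tested. The 6 Mueller glia and astrocyte markers summed to 3187, 6679 and 6948 TPM in the libraries labelled WT and to 2644, 2967 and 6859 TPM in those labelled cKO. In that sum cKO replicate 3, the library with the most *Dusp1*, stood with WT replicates 2 and 3. WT replicate 1, with *Dusp1* at 534 TPM, stood nearer to cKO replicates 1 and 2, where *Dusp1* was at 235 and 391 TPM. *Gfap* on that list differed, at 63.0, 75.7 and 116 TPM labelled WT and 17.3, 25.7 and 37.5 TPM labelled cKO. The 7 endothelial and pericyte markers summed to 384, 602 and 1042 TPM labelled WT and to 273, 322 and 771 TPM labelled cKO. There too cKO replicate 3 stood with WT replicates 2 and 3, and WT replicate 1 nearer to cKO replicates 1 and 2. The 6 erythrocyte markers ran from 94.3 to 1353 TPM against 130 to 234 TPM. *Kdr*, at 164 to 590 TPM, and *Rgs5*, at 67.4 to 473 TPM, made up most of the endothelial and pericyte sum. *Cdh5* reached at most 0.39 TPM and *Vwf* at most 0.721 TPM. In no list was a marker at 0 in all 6 libraries. The part of cell mixture in the values of the 10 genes was not tested.

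**Figure D3:**
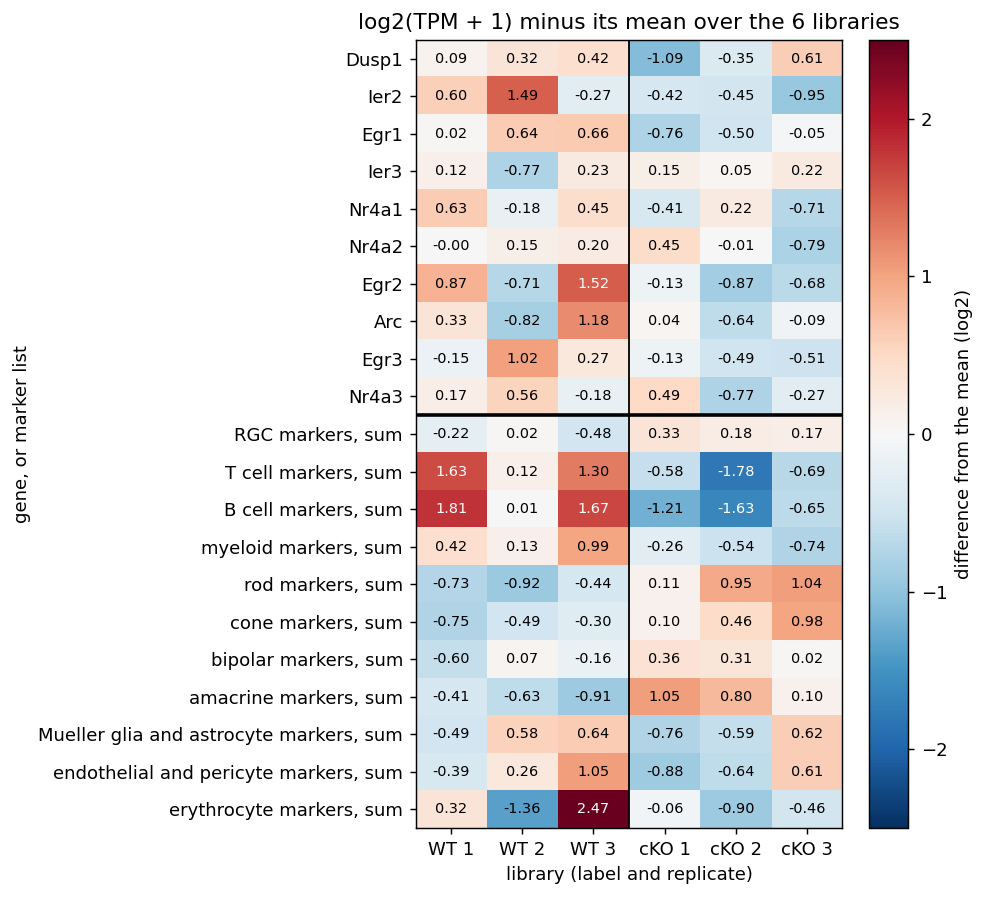
Heat map of log2(TPM + 1) minus its mean over the 6 libraries (red above, blue below) for the 10 genes (upper block) and for the summed TPM of 11 marker lists (lower block). *Dusp1*, the Mueller glia and astrocyte sum and the endothelial and pericyte sum are all high in WT replicates 2 and 3 and cKO replicate 3. In WT replicate 1 both sums are below their means and *Dusp1* is not. T cell, B cell and myeloid sums are higher in the 3 libraries labelled WT than in the 3 labelled cKO, the myeloid sum largely through *C1qa* and *C1qb*.

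The genes around the pathway were read from 10 lists of 83 genes, 82 of which were tested. None passed an adjusted p under 0.05. At an unadjusted p under 0.05, 11 of the 82 were lower and 3 higher under the label cKO, beside 6.45% and 11.9% of all genes. In the fit with a replicate block 18 were lower, and the share of all genes that were lower rose to 8.52%. The 22 further immediate early genes, 21 of them tested, had 14 genes with a fold change under 0 and a median of -0.58. All 8 AP-1 genes had a fold change under 0, with a median of -1.0 and 3 at an unadjusted p under 0.05. For *Fos* the log2 fold change was -0.99 (limma adjusted p = 0.209) and for *Junb* -1.17 (limma adjusted p = 0.165). *Egr4*, the fourth EGR gene, stood at 11.7 TPM in WT replicate 2 and between 0.241 and 1.38 TPM in the other 5 libraries. *Ier5*, a regulator of the heat shock factor, stood at 103 TPM in WT replicate 2 and between 3.31 and 7.02 TPM elsewhere. *Npas4*, induced in neurons by calcium, lay between 0.761 and 3.44 TPM with overlapping groups. *Sik1*, a kinase that restrains CREB coactivators, was at 1.99, 1.75 and 1.58 TPM labelled WT and 1.25, 0.378 and 0.282 TPM labelled cKO, without overlap. *Homer1*, a synaptic scaffold gene whose short isoform Homer1a is the immediate early product, was measured over all isoforms together. It did not overlap between the labels either, at 3.52 to 4.19 TPM against 4.63 to 5.85 TPM.

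The factors that switch these genes on are given by sign, where 10733 of all 17555 genes tested had a fold change above 0. Of 6 SRF, TCF and MRTF genes 5 had a fold change under 0 (median -0.44), of 7 CREB factors and coactivators 5 had one above 0 (median 0.24), and all 3 MEF2 genes had one above 0 (median 0.37). No CREB or MEF2 gene had an unadjusted p under 0.05 in limma. *Creb1* stood at 18.4, 13.4 and 22.4 TPM labelled WT and 25.8, 30.8 and 24.6 TPM labelled cKO (log2 fold change 0.58, limma adjusted p = 0.297), and *Srf* at 4.49 to 9.98 TPM against 2.31 to 8.25 TPM. The 13 kinases of the ERK cascade had a median of 0.03 with 9 above 0. Among the factors that limit the response, all 5 EGR co-repressors and mRNA decay factors had a fold change under 0 (median -0.87). *Zfp36*, which encodes the mRNA decay factor tristetraprolin, had 386, 263 and 520 TPM labelled WT and 192, 128 and 228 TPM labelled cKO, without overlap (log2 fold change -1.08, limma adjusted p = 0.174). *Nab1*, a co-repressor of EGR proteins, had 17.7, 15.4 and 18.8 TPM against 12.6, 13.7 and 10.8 TPM, also without overlap. The 9 other dual specificity phosphatases had a median of 0.05 with 5 above 0, and *Dusp6*, the phosphatase for ERK, lay at 43.3 to 60.4 TPM against 40.6 to 69.9 TPM. The 3 RXR genes, partners of *Nr4a1* and *Nr4a2*, had a median of -0.17, and the 7 Arc binding partners a median of 0.30. Of the latter, *Camk2b*, a subunit of calcium/calmodulin-dependent kinase, had 62.4 to 85.7 TPM labelled WT and 95.2 to 118 TPM labelled cKO, without overlap (limma adjusted p = 0.222).

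**Figure D4:**
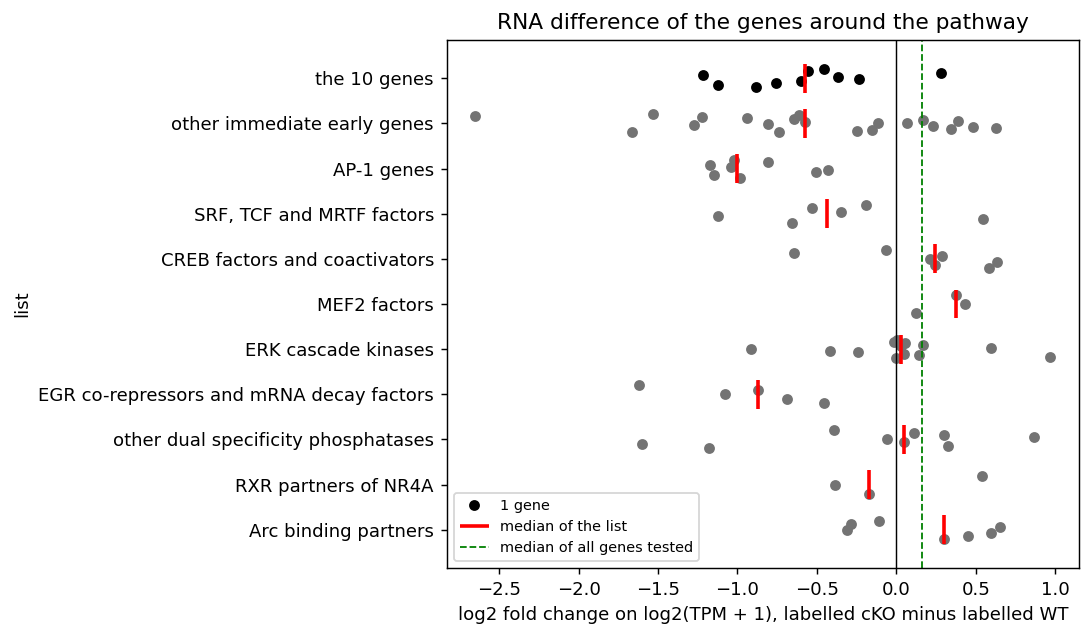
Log2 fold change on log2(TPM + 1), labelled cKO minus labelled WT, for each gene of the pathway lists (grey points) and for the 10 genes (black points), with each list's median (red) and the median of all genes tested (dashed line, 0.16). The medians lie between -1.0 for the AP-1 genes and 0.37 for the MEF2 factors, and no gene passed an adjusted p under 0.05.

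ATAC-seq marks open chromatin, and the authors' comparison gives 1 value per region and label, the log2 of the mean normalized reads of 2 libraries. It holds no value per library that was used here, so no spread can be given and no test was run. The 5 regions within 1000 bp of an end belonged to *Egr1*, *Nr4a3*, *Dusp1*, *Arc* and *Ier2*, and all 5 touched the gene. In all 5 the log2 difference, cKO minus WT, was -1 or less, as it was in 59.8% of all regions and in 89.0% of the 8002 regions within 1000 bp of any gene end. The median difference was -1.57 over all regions and -2.5 over those at gene ends, so a low value alone does not set these genes apart. A difference of -2 or less was found in 4 of the 5, beside 40.8% of all regions and 67.6% of those at gene ends, and one of 1 or more in 0, beside 8.73% and 1.70%. Relative to the median of all regions, 3 of the 5 were still at -1 or less, beside 27.2% of all regions. Relative to the median at gene ends, 2 were, beside 17.6% of regions at gene ends.

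The *Egr1* region, 1719 bp wide, had 214 normalized reads in WT and 15.3 in cKO, a log2 difference of -3.80, and its WT value ranked 46 of the 16600 regions. *Dusp1* had a region at chr17:26507900-26509134, which holds the whole promoter window printed above, with 75.1 reads in WT and 5.03 in cKO, a log2 difference of -3.90. At gene ends, 11.2% of regions had a lower difference than *Egr1* and 9.67% a lower one than *Dusp1*. The *Nr4a3* region, chr4:48044501-48045811, which holds the window with 4 CRE half-sites, had 94.4 reads in WT and 11.2 in cKO, a log2 difference of -3.08. *Ier2* had 22.8 and 5.06 reads at chr8:84662443-84662943, a log2 difference of -2.17. *Arc* had the smallest difference of the 5, -1.24, with 35.3 reads in WT and 14.9 in cKO at chr15:74672507-74673477, and 86.1% of regions at gene ends had a lower one. The 2 genes whose RNA values did not overlap between the labels, *Egr1* and *Ier2*, thus had region differences of -3.80 and -2.17, and *Dusp1*, with overlapping RNA values, one of -3.90. The cKO values of the 5 regions lay between 5.03 and 15.3 reads, beside a cKO median of 6.15 reads at gene ends. The differences did not follow the WT values alone. *Dusp1* had fewer WT reads than *Egr1* and *Nr4a3* but the lowest difference of the 5, and *Arc* had more than *Ier2* but a smaller difference. With cKO values this low, few reads separate one difference from another.

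Other regions lay near the genes but outside the 1000 bp. Nearest was a further *Ier2* region 1111 bp from an end, with a difference of -2.05. A region 1495 bp from the start of *Nr4a3*, at chr4:48042744-48043583, had the lowest difference of those near the genes, with 135 normalized reads in WT and 4.72 in cKO, a log2 difference of -4.84. Of the regions at gene ends, 1.46% had a lower difference. *Egr3* had one 1867 bp from an end, with 47.2 reads in WT and 8.22 in cKO. In *Nr4a1* a region at chr15:101266474-101266972 lay inside the gene, 7823 bp from its nearer end, and covered the promoter window printed above, with 36.5 reads in WT and 5.43 in cKO, a log2 difference of -2.75. *Nr4a2* had one inside the gene, with 22.6 and 6.11 reads. *Egr2* and *Ier3* had no region inside the gene or within 3000 bp of an end.

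**Figure D5:**
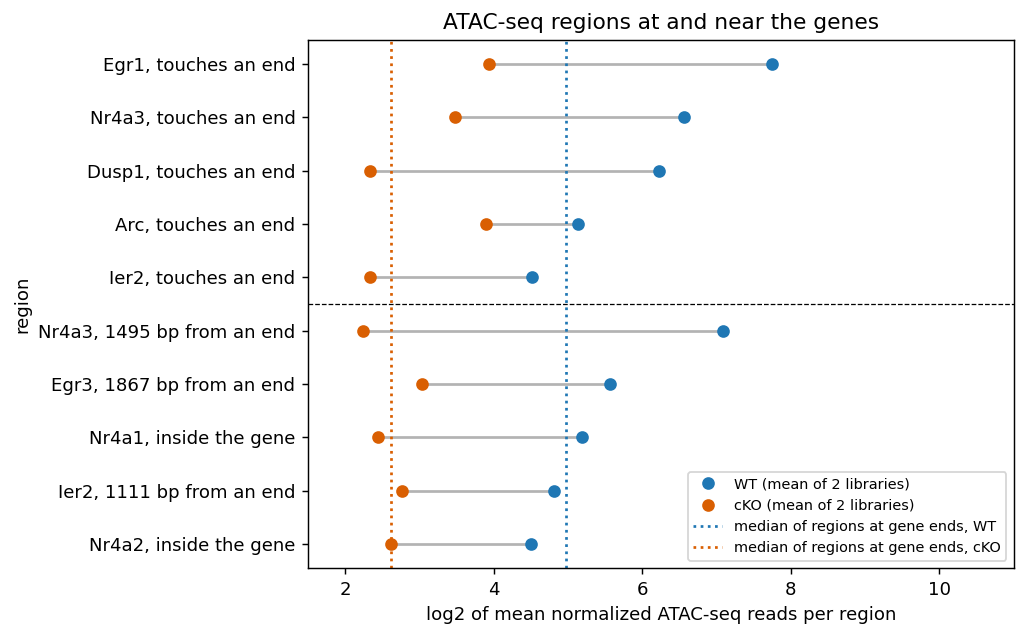
Log2 of mean normalized ATAC-seq reads in WT (blue) and cKO (orange), each a mean of 2 libraries deposited by the authors, for the 5 regions at an end of the genes (above the dashed line) and 5 further regions near or inside them, with the medians of all regions at gene ends (dotted lines). Every region is lower in cKO, with a difference between -1.24 at *Arc* and -4.84 at the region 1495 bp from *Nr4a3*.

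The peaks called in each library were compared with the same windows. A peak lay within 1000 bp of an end of 7 of the 10 genes in WT replicate 1 and of 7 in WT replicate 2. In cKO replicate 1 there were 0 and in cKO replicate 2 there were 2. Of all 49997 genes with a position, 30.6% and 25.1% had such a peak in the WT libraries and 10.6% and 11.5% in the cKO libraries. These shares are not matched for expression, since all 10 genes passed the RNA filter and only 17555 genes did so. The libraries held 76522 and 42265 peaks in WT and 55902 and 68317 in cKO. *Egr1*, *Nr4a3*, *Ier2*, *Dusp1* and *Arc* had one in both WT libraries. *Nr4a1* and *Nr4a2* had one in WT replicate 1 alone among the WT libraries, and *Egr3* and *Ier3* in WT replicate 2. The cKO replicate 2 peaks were at *Nr4a3* and *Ier3*. *Egr2* had none in any library, although all of them but WT replicate 2 had a peak inside the gene. No test was run on these counts of peaks, with 2 libraries per label. The libraries differed overall in the same way, with 17.8% and 25.2% of WT peaks but 9.00% and 8.02% of cKO peaks within 1000 bp of a gene end. Whether that general difference accounts for the values of these genes was not tested.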

How the data were processed

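RNA-seq and ATAC-seq were made from Thy1.2-sorted retinal cells. Per the submitters' processing notes and methods, reads were quantified with Salmon 1.0.0 and summed to genes, and the authors deposited TPM values for each library. ATAC-seq reads were aligned with Bowtie2 2.3.5.1 to GRCm38, MACS2 2.2.5 is named in the notes, and regions were compared with DiffBind; the authors deposited log2 values of mean normalized reads per group and peak positions per library. Their fold changes, p-values and FDRs, made with DESeq2 1.26.0 or DiffBind, were not used. Depth is unknown, since TPM keeps none.

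The 10 genes, the lists and the tests were chosen with earlier results of these data known. Groups came from the sample titles, and the labels do not say that RNA-seq libraries came from separate animals, so p-values measure the spread between these samples. The filter was 1 TPM or more in 3 or more libraries and the pseudocount was 1. On the log2 scale, limma 3.58.1 in R 4.3.3 was fitted with a trend over 17555 genes, and p-values were adjusted by Benjamini-Hochberg (threshold 0.05). A fold change on log2(TPM + 1) understates the change of low genes. The fit was tested on simulated data. Named genes are the 10 genes, *Arid1a*, a fixed choice from the lists, the nearest gene by the measure of likeness, and *Cd3e* and *Rbpms*. Some genes that the rule names are not reported here. *Pou4f2*, *Thy1*, *Isl1* and *Nefl* were named after their values were seen. So were the single genes named beside the sums of the myeloid, RGC, Mueller glia and astrocyte, and endothelial and pericyte markers. Deviations of same-numbered libraries from their group means had correlations of 0.334, 0.101 and 0.425 across genes, the lowest for replicate 2. Libraries with different numbers were not compared in this way, and the labels do not say what the replicate number stands for. The replicate number was run as a block as an alternative.

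Gene ends came from RefSeq on GRCm38.p6, and region starts were taken as the peak starts, counted from 1 when printed. ATAC-seq values exist per group only, so a block could not be fitted to them. Tables and plots were made in Python 3.11.15 (pandas 2.3.3, scipy 1.17.1, matplotlib 3.10.9). No sequence was printed for *Egr1*, *Egr3*, *Ier2* and *Arc*.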

Additional observations from a re-analysis of the deposited data

How the results depend on the processing

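None of the 10 genes passed an adjusted p under 0.05 in any of the 12 alternatives for RNA (pseudocount of 0.1, no filter, a floor of 5 on mean TPM, median-of-ratios scaling, replicate block, no trend, and each of 6 libraries left out), and none of the pathway genes did. With a mean TPM of at least 5, 7 of the 10 genes were left, and 6 of them had a fold change under 0. With single libraries left out, the genes with a fold change under 0 numbered 8 to 10 and those lower at an unadjusted p under 0.05 numbered 1 to 3. The fold change ranged from -0.031 to 0.46 for *Ier3*, from -0.98 to 0.020 for *Arc* and from -0.51 to 0.11 for *Nr4a2*. With the replicate number as a block, 3 of the 10 genes were lower at an unadjusted p under 0.05, and 18 pathway genes were lower in place of 11, while the share of all genes that were lower went from 6.45% to 8.52%. As libraries were left out, 5 to 13 pathway genes were lower and 2 to 8 higher, with 8 higher without WT replicate 2. The causes were not tested. A window of 3000 bp gave 8 of 8 regions with a log2 difference of -1 or less and 1 gene with a peak in cKO replicate 1. Centred on the median of all regions 3 of 5 were left, and centred on the median at gene ends, an alternative added after seeing the data, 2 of 5. With start sites added to the gene ends, also added after seeing the data, there were 6 regions, all at -1 or less. Without replicate values, no error can be given for any ATAC-seq region.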

Other observations

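Further genes of the pathway lists with an unadjusted p under 0.05 are given here, chosen after their values were seen. *Klf6*, a zinc finger factor of the KLF family, had 312, 154 and 265 TPM in the libraries labelled WT and 111, 56.8 and 81.7 TPM in those labelled cKO (log2 fold change -1.53, limma adjusted p = 0.126). *Csrnp1*, a nuclear protein induced by AXIN1, had 46.8, 30.1 and 60.1 TPM against 18.6, 12.2 and 26.6 TPM (log2 fold change -1.22, limma adjusted p = 0.170). *Klf2*, a factor of quiescent T cells and endothelium, stood at 19.8, 83.2 and 7.16 TPM against 4.01, 1.76 and 3.17 TPM (log2 fold change -2.65, limma adjusted p = 0.168). *Elk3*, a ternary complex partner of SRF, had 13.1, 11.3 and 16.6 TPM against 5.55, 4.52 and 7.20 TPM (log2 fold change -1.12, limma adjusted p = 0.140). In the other direction, *Dusp8*, a phosphatase of the JNK and p38 kinases, had 112, 83.7 and 142 TPM against 206, 197 and 202 TPM, and *Braf*, the kinase at the top of the ERK cascade, 20.0, 12.3 and 26.4 TPM against 38.6, 36.5 and 37.6 TPM. The groups did not overlap in any of these genes, and each had a limma adjusted p above 0.05. They were picked by their p, so the lack of overlap is not a separate result. All cKO values lay below all WT values in 7.18% of all genes and above in 18.7%. Of the other pathway genes at an unadjusted p under 0.05, *Fos*, *Fosb* and *Rps6ka1* had overlapping groups. *Rgs2* (log2 fold change -0.64), *Junb*, *Sik1*, *Zfp36* and *Camk2b* did not.

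WT replicate 2 held the highest value of *Ier2*, *Egr3*, *Egr4*, *Ier5*, *Klf2* and *Nab2* (70.0 TPM, against 14.5 to 24.3 TPM in the other libraries) and the lowest of *Ier3* and *Arc*. Mitochondrial transcripts made up 2.47% of TPM in that library, 2.58% in cKO replicate 3 and 3.30% to 4.66% in the other 4.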
